A study of Mus musculus with 48 samples.

Results

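The genes described here are 8 genes of antigen presentation by MHC class II, namely H2-Aa, H2-Ab1, H2-Eb1, Cd74, H2-DMa, H2-DMb1, Ctss and Ciita. They were taken by gene symbol from the deposited tables of 6 tissues, which list 15541 genes in all, and each matched a single Ensembl identifier. All 8 were listed in duodenum, jejunum, ileum, subcutaneous white adipose tissue (WAT) and liver, and 7 were listed in muscle, where Ciita was not. The mice were male, diet-induced obese C57Bl6 animals kept on a high fat diet, with no substrain given. They underwent Roux-en-Y gastric bypass (RYGB), which connects a stomach pouch directly to the jejunum and leaves the duodenum out of the path of food, or sham surgery. Both groups then received a liquid elemental diet for 9 days and were killed at 10am after an overnight fast, so that the diet and the fast were common to all 48 libraries. Duodenum and jejunum had 4 sham and 3 RYGB libraries each, ileum had 5 and 5, and WAT, liver and gastrocnemius muscle had 4 and 4. The intestinal samples were villi scraped off after a short EDTA bath, so they hold the epithelium together with whatever cells came off with it.

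MHC class II molecules display peptides from endosomes to CD4 T cells. The alpha and beta chains (H2-Aa and H2-Ab1 for the A molecule, H2-Eb1 for the E molecule) are assembled on the invariant chain, which Cd74 encodes and which fills the peptide groove. Cathepsin S, the product of Ctss, trims the invariant chain, and the DM heterodimer of H2-DMa and H2-DMb1 exchanges the remaining fragment for peptide. Ciita encodes the transactivator that is recruited by the RFX, NF-Y and CREB proteins to a shared promoter element, made of the X and Y boxes, and it sets the level of the chain genes. B cells, dendritic cells and macrophages make class II molecules constitutively or after activation, and the epithelium of the small intestine can make them under interferon gamma. The C57BL/6 haplotype lacks a working E alpha chain, so H2-Eb1 transcripts there have no partner at the cell surface.

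In GRCm38 with GENCODE M21, H2-DMa (chromosome 17, 34119541 to 34139101, plus strand), H2-DMb1 (34153072 to 34160230, plus), H2-Ab1 (34257689 to 34269419, plus), H2-Aa (34282744 to 34287823, minus) and H2-Eb1 (34305867 to 34316674, plus) lie together in the MHC. Ciita lies on chromosome 16 (10480059 to 10528418, plus), Ctss on chromosome 3 (95526786 to 95556403, plus) and Cd74 on chromosome 18 (60803848 to 60812652, plus). Values are CPM, the reads of a gene scaled to a common library total. H2-DMb1 has a near-identical neighbour, H2-DMb2, and reads may have been split between them.

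Tissue markers matched the labels. The summed enterocyte list was between 24331 and 43553 CPM in the villus libraries and at most 177 CPM elsewhere, the hepatocyte list, part of which the villi also make, was at least 90231 CPM in liver and 12889 to 39428 CPM in the villi, and the muscle fibre list was at least 114354 CPM in muscle. Some libraries stood apart before any comparison. In 5 of the 24 villus libraries the summed level of H2-Aa, H2-Ab1, H2-Eb1 and Cd74 was between 1843 and 5035 CPM, and in the other 19 it was between 34.4 and 353 CPM. These 5 were sham replicate 3 of the duodenum, sham replicate 3 of the jejunum, and sham replicates 3 and 4 and RYGB replicate 3 of the ileum. All ileal RYGB libraries were read on lane 1 and all ileal sham libraries on lanes 2 and 3, so an effect of the lane and one of surgery cannot be told apart there. A further feature of single sham libraries of the villi and WAT was the level of Nnt, the mitochondrial transhydrogenase. It was 40.7 to 58.9 CPM in duodenal sham replicates 3 and 4, jejunal sham replicate 3 and ileal sham replicates 3 and 4, and 14.0 to 34.1 CPM in the other villus libraries. In WAT sham replicates 2 and 3 Nnt was 56.8 and 57.0 CPM against 20.9 to 27.3 CPM in the other WAT libraries. In liver it was 195 CPM in sham replicate 3, 43.9 to 47.6 CPM in the other sham libraries and 86.4 to 109 CPM in RYGB libraries. In muscle it was 126 CPM in sham replicate 3, 18.4 to 33.8 CPM in the other sham libraries and 53.9 to 166 CPM in RYGB libraries. The part of Nnt in the class II values was not tested.

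Promoter sequences are shown for 4 of these genes because the X and Y boxes are the element through which the transactivator acts. The RefSeq promoter table (GRCm38.p6, 250 bases before to 50 bases after a transcription start) held 5 of the 8 genes. Capitals mark the X box core AACNGATG and the Y box core ATTGG in H2-Eb1 and H2-DMb1, the palindrome TGACGTCA (a cyclic AMP response element) and ATTGG in H2-Aa, and the X box core alone in Ctss. Each stretch runs from 5′ to 3′ on the strand of its gene, at chr17:34305758-34305832 for H2-Eb1, chr17:34153079-34153154 for H2-DMb1, chr17:34287847-34287917 for H2-Aa (minus strand) and chr3:95526559-95526606 for Ctss.
H2-Eb1: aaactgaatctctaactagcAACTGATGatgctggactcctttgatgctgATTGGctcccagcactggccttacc
H2-DMb1: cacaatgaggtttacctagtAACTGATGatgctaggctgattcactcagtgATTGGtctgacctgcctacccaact
H2-Aa: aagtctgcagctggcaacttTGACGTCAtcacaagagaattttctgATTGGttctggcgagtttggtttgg
Ctss: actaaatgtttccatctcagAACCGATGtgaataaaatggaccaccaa

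The spacing was alike in the paired promoters, with 22 bases between the cores in H2-Eb1 and 23 in H2-DMb1, and 18 bases separated the palindrome from ATTGG in H2-Aa. Both strands of all 32851 promoters in the table were searched. AACNGATG was found in 2.32% of them, ATTGG in 37.4% and TGACGTCA in 1.79%. An X box core followed within 50 bases by a Y box core on the same strand was found in 22 promoters, or 0.067%. Of these 22, 4 belonged to class II genes (H2-Eb1, H2-DMb1, H2-DMb2 and H2-Eb2). Neither of the H2-DMa entries held the pair, and neither did Ctss.

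Across tissues, the level of the class II genes was highest in WAT, and single villus libraries ranged from below muscle to above sham WAT. The tables were normalized separately for each tissue, so levels across tissues are given as ranges without a test. In sham mice Cd74 was between 383 and 974.7 CPM in WAT (median 733), 63.1 and 99.6 CPM in liver (median 82.8), and 23.0 and 43.1 CPM in muscle (median 39.5). The villi of sham mice had Cd74 between 11.1 and 804 CPM in duodenum (median 73.8), 15.2 and 1923 CPM in jejunum (median 55.7), and 42.7 and 2237 CPM in ileum (median 99.2). The order of the medians was thus WAT, ileum, liver, duodenum, jejunum and muscle, and each neighbouring pair in this order overlapped in its ranges. Each of the 8 genes was higher in every sham WAT library than in every sham liver library, as were 67.8% of the 11234 genes listed in both tables. These are bulk samples, so more cells of a kind that makes class II molecules and more transcript per cell cannot be told apart.

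Compared per kilobase of merged exons, the genes had a different order in the villi and in WAT. In sham ileum the median level was 137 CPM per kilobase for Ctss, 59.1 for Cd74, 40.5 for H2-Ab1, 21.3 for H2-Eb1 and 8.11 for H2-Aa. In sham WAT Cd74 came first with 437 CPM per kilobase, followed by Ctss with 259, H2-Eb1 with 137, H2-Aa with 102 and H2-Ab1 with 95.9. The merged exons of H2-Aa span 3798 bases. Before division by length its sham WAT median (389 CPM) was above those of H2-Eb1 (266 CPM) and H2-Ab1 (246 CPM). The order of these chains thus depends on the length used. By group medians the protease thus came first in the sham ileum and the invariant chain in WAT. In the high villus libraries Cd74 was far above Ctss, reaching 1332 CPM per kilobase in sham ileum, where the highest Ctss level was 201. In sham liver Ctss (58.5) and Cd74 (49.3 CPM per kilobase) had similar medians. Ciita was the lowest of the 8 in each of these tissues, with 0.81 CPM per kilobase in sham ileum, 2.09 in sham WAT and 0.16 in sham liver.

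**Figure D1:**
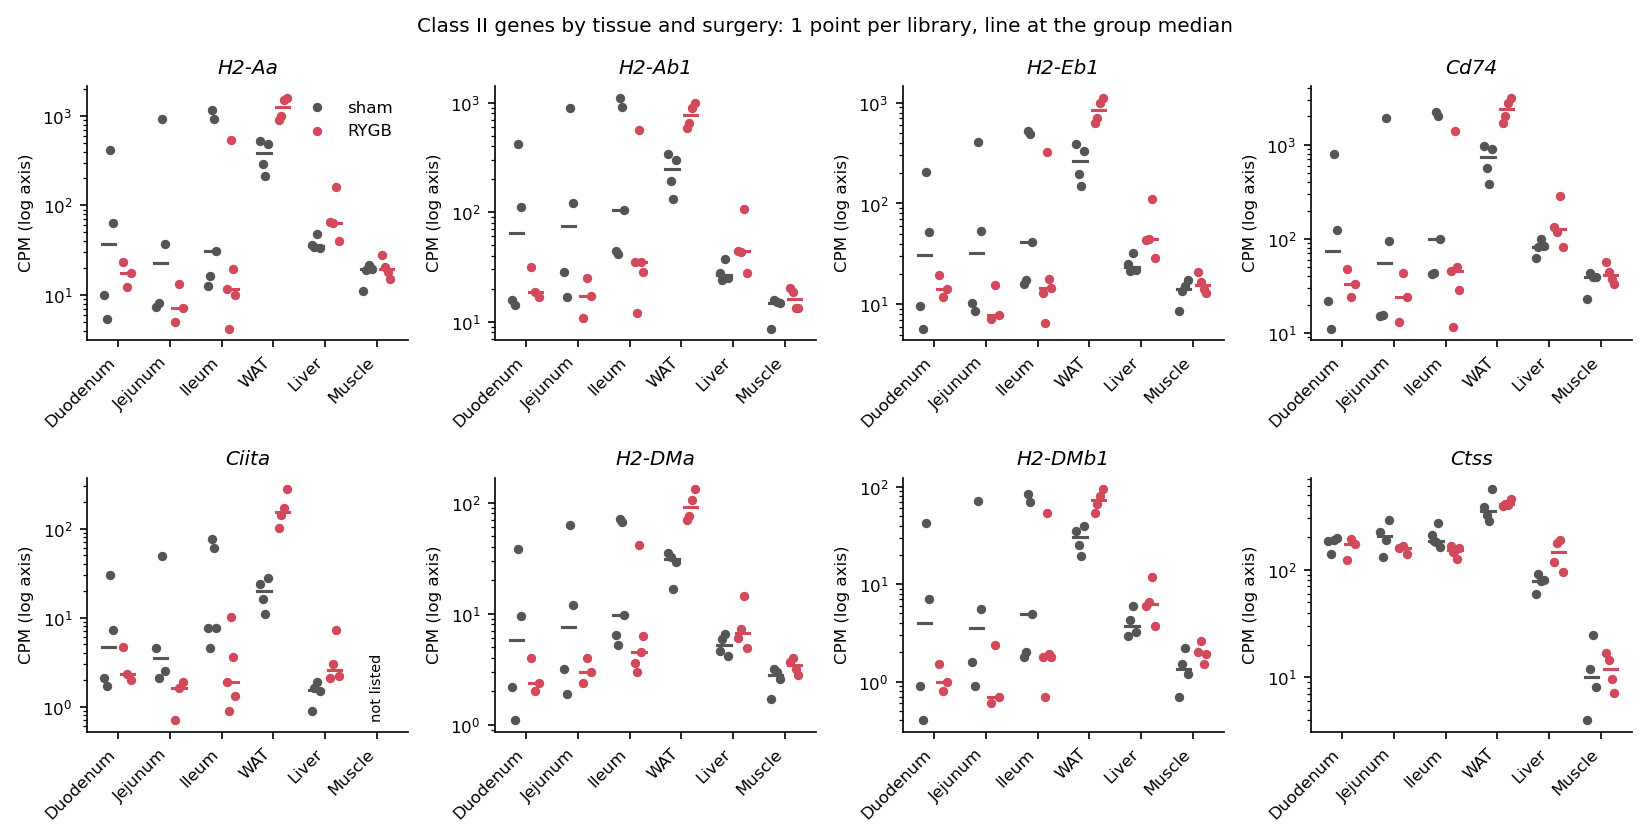
CPM of each class II gene on a log axis in 6 tissues, with 1 point per library (grey for sham, red for RYGB) and a line at the group median. Sham and RYGB points of WAT separate in 7 of the 8 panels, and 5 villus libraries lie far above the others in every panel except Ctss and, for ileal RYGB replicate 3, Ciita.

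In the villi the chain genes differed widely from library to library, with high libraries in both surgery groups of the ileum and in the sham groups of duodenum and jejunum. In the duodenum Cd74 was 22.1, 11.1, 804 and 126 CPM in sham replicates 1 to 4, and 47.9, 24.2 and 33 CPM in RYGB replicates 1 to 3. In the jejunum it was 15.2, 15.7, 1923 and 95.7 CPM in the sham libraries, and 13.1, 43.7 and 24 CPM in the RYGB libraries. The ileal sham libraries had 42.7, 43.5, 2237, 2003 and 99.2 CPM, and the ileal RYGB libraries had 45.9, 11.6, 1403, 50.7 and 28.7 CPM. The groups overlapped in each segment, and the ileal libraries fell into 3 of at least 1403 CPM and 7 of at most 99.2 CPM.

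H2-Aa, the alpha chain of the A molecule, followed the same libraries. It was 413.5 CPM in duodenal sham replicate 3 and 5.4 to 63.8 CPM in the other duodenal libraries, and 926 CPM in jejunal sham replicate 3 against 5.0 to 37.3 CPM. In the ileum H2-Aa was 1163 and 917 CPM in sham replicates 3 and 4 and 543 CPM in RYGB replicate 3, whereas the other 7 libraries had 4.2 to 30.8 CPM. No library lay between these levels. H2-Ab1, its beta chain, reached 421 CPM in duodenal sham replicate 3, 900.3 CPM in jejunal sham replicate 3, and 1117, 923 and 564 CPM in the 3 high ileal libraries. H2-Eb1 reached 204, 411, 519, 495 and 321 CPM in the same libraries. The lowest villus values were 10.7 CPM for H2-Ab1 and 5.7 CPM for H2-Eb1.

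The peptide exchange genes and the transactivator had the same pattern at lower levels. H2-DMb1 was 42.6 CPM in duodenal sham replicate 3, 72.2 CPM in jejunal sham replicate 3, and 84.6, 69.7 and 54.3 CPM in the high ileal libraries, and it was at most 7.1 CPM in the other villus libraries. H2-DMa was 37.9, 62.6, 70.6, 67.4 and 41.1 CPM in the 5 libraries and 1.1 to 12 CPM in the others. Ciita was 30.2 CPM in duodenal sham replicate 3, 49.1 CPM in jejunal sham replicate 3, and 76.2 and 60.5 CPM in ileal sham replicates 3 and 4. In ileal RYGB replicate 3 Ciita was 10.2 CPM, close to the 7.7 CPM of ileal sham replicate 1, although Cd74 was 1403 CPM in the former and 42.7 CPM in the latter.

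Ctss did not follow the chain genes. Over the 24 villus libraries it ranged from 124 to 288 CPM, and the 5 libraries with high chain genes had 188, 188, 182, 273 and 152 CPM. Its highest value, 288 CPM, was found in jejunal sham replicate 4, where Cd74 was 95.7 CPM.

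**Figure D2:**
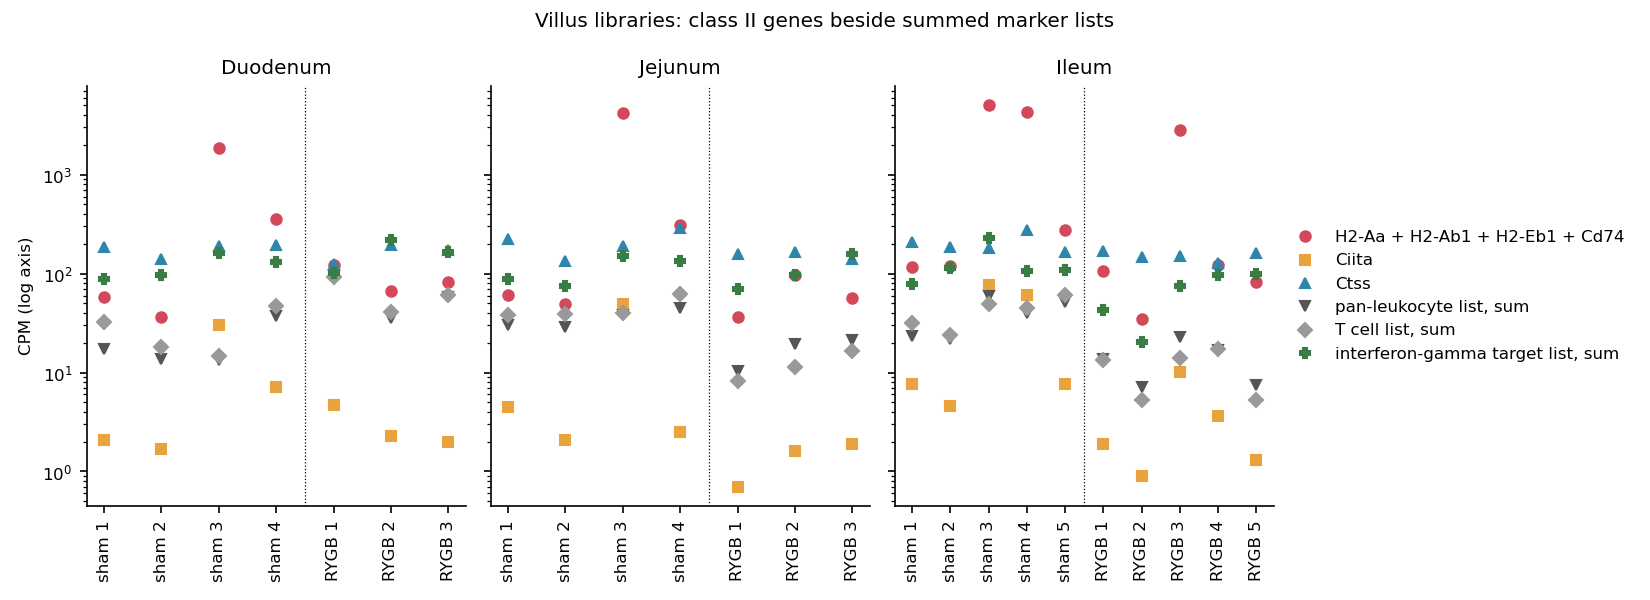
CPM on a log axis in each villus library (sham left and RYGB right of the dotted line) of the summed chain genes, Ciita, Ctss and 3 summed marker lists. The chain genes reach 1843 to 5035 CPM in 5 libraries, while Ctss stays between 124 and 288 CPM and the pan-leukocyte list is at most 94.8 CPM in any library.

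The balance between the chain genes also differed between low and high libraries. The ratio of H2-Aa to H2-Ab1 was 0.98 in duodenal sham replicate 3, 1.03 in jejunal sham replicate 3, and 1.04, 0.99 and 0.96 in the high ileal libraries. Of the other villus libraries, 18 had a ratio between 0.26 and 0.73, and duodenal RYGB replicate 3 had 1.05 at an H2-Aa level of 17.8 CPM. WAT libraries had ratios from 1.52 to 1.66, liver libraries from 1.29 to 1.49, and muscle libraries from 1.12 to 1.42. The ratio of H2-DMb1 to H2-DMa was between 1.03 and 1.32 in the 5 high villus libraries and between 0.23 and 0.75 in the others. In those others H2-DMb1 was 0.4 to 7.1 CPM, so rounding to 0.1 CPM limits the precision of their ratios.

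**Figure D3:**
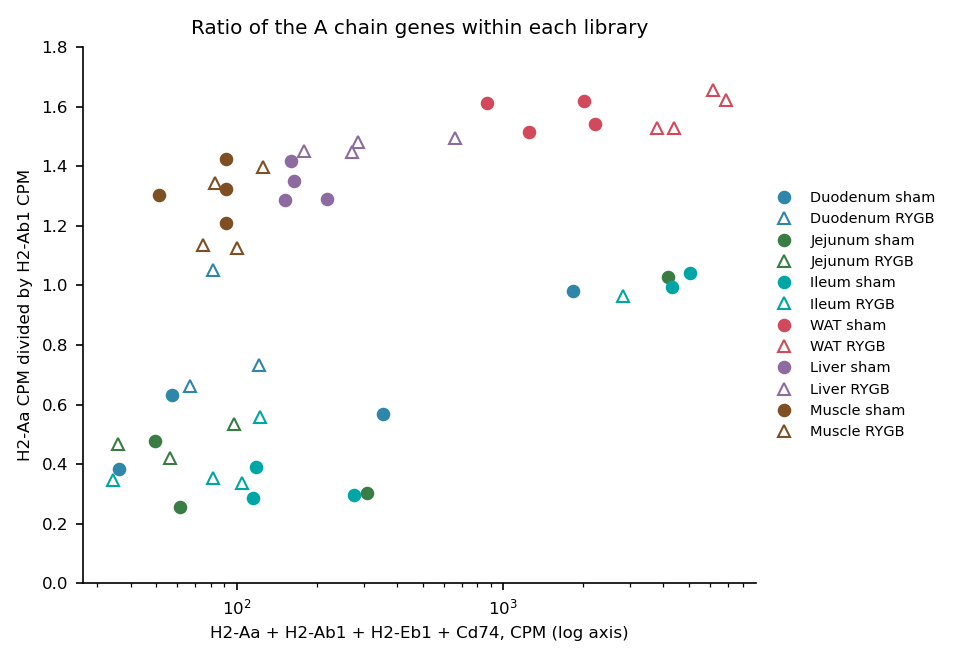
Ratio of H2-Aa to H2-Ab1 CPM in each of the 48 libraries against the summed chain genes in CPM (log axis), with filled circles for sham and open triangles for RYGB. The 5 high villus libraries have ratios from 0.96 to 1.04, below all WAT libraries (1.52 to 1.66) at similar summed levels.

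Markers of B cells and dendritic cells, which usually make class II molecules, were sparse in the villi. Of the 12 B cell markers 11 were not listed, of the 12 dendritic cell markers 11 were not listed, and Cd4 was not listed in any of the 3 segments. Itgax (CD11c), the remaining dendritic cell marker, was 1.0 CPM in duodenal sham replicate 3, 3.4 CPM in jejunal sham replicate 3, and 4.4, 3.4 and 1.5 CPM in the high ileal libraries, and its highest villus value was 8.1 CPM in duodenal RYGB replicate 1. The summed pan-leukocyte list was 13.5 CPM in duodenal sham replicate 3, the lowest of that segment, and 94.8 CPM in duodenal RYGB replicate 1, whose Cd74 was 47.9 CPM. In the ileum it was 58.7, 39.6 and 22.7 CPM in the high libraries and 7.2 to 51.0 CPM in the others. The T cell list was 14.7 CPM in duodenal sham replicate 3, and 40.3, 49.6, 44.4 and 14.0 CPM in the other 4. The summed macrophage list was not sparse, with 118 to 389 CPM over the villus libraries. It was 240, 244, 251, 389 and 176 CPM in the 5 high libraries. In the ileum 10 of the 14 macrophage markers were not listed, and Mertk alone had a mean of 275 CPM in sham and 171 CPM in RYGB. The part of leukocytes in the chain gene levels was not tested beyond these values.

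Interferon gamma targets followed the chain genes in some of these libraries only. Ifng itself was not listed. Igtp, an interferon-induced GTPase, was 60.4 CPM in duodenal sham replicate 3, 53.9 CPM in jejunal sham replicate 3 and 75.8 CPM in ileal sham replicate 3, but 22.8 CPM in ileal sham replicate 4 and 6.8 CPM in ileal RYGB replicate 3. Its highest values outside these libraries were 73.2 CPM in duodenal RYGB replicate 2 and 57.0 CPM in jejunal sham replicate 4, where Cd74 was 24.2 and 95.7 CPM. Nlrc5, the class I transactivator, was 24.9 CPM in ileal sham replicate 3 and 4.0 CPM in ileal RYGB replicate 3. The summed interferon gamma signalling list, however, was highest of all villus libraries in ileal RYGB replicate 3, at 1780 CPM. It was 1183.5 to 1278 CPM in the other high libraries and 1014.5 to 1671 CPM in the remaining villus libraries. The summed interferon gamma target list was 160, 151, 228, 106 and 74.5 CPM in the 5 libraries and 20.2 to 218 CPM in the other villus libraries, so the ranges overlapped.

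None of the 8 genes was called between RYGB and sham in any intestinal segment with limma, where called means an adjusted p under 0.05 and a fold change of at least 1.5 in either direction. The background was 0.00922% of 10850 genes called in duodenum, 9.75% of 10854 in jejunum and 6.05% of 10735 in ileum. At an unadjusted p under 0.05 there were 0 of the 8 genes in duodenum, 0 in jejunum and 2 in ileum, Ciita and Ctss, beside 2040, 2667 and 2842 of all genes tested, so the count in the ileum was near the share over all genes. All estimates were below 0, with a median log2 fold change of -1.0 in duodenum, -1.74 in jejunum and -1.79 in ileum, beside 0.12, -0.04 and -0.09 over all genes tested. The intervals were wide. For Cd74 the log2 fold change was -1.07 (95% interval -3.95 to 1.8) in duodenum, -1.75 (-4.85 to 1.36) in jejunum and -1.88 (-4.95 to 1.18) in ileum, on the log2(CPM + 1) scale that all fold changes here use.

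The size of these estimates depended on the high libraries. Without duodenal sham replicate 3 the log2 fold change of Cd74 was 0.08. The other members then lay between -0.44 (H2-Ab1) and 0.13 (H2-Aa). Without jejunal sham replicate 3 Cd74 was at -0.24, the smallest change of the 8 genes, and H2-Ab1 at -1.19, the largest. All 8 jejunal estimates stayed below 0. Without ileal sham replicates 3 and 4 and RYGB replicate 3 the log2 fold change of Cd74 was -0.91 (adjusted p = 0.326). With that ileal set left out limma called 0 of the 8 genes, as it did with all libraries. The ileal set was chosen after the values were seen, whereas each single library of every tissue was left out in turn by plan. Ciita had the lowest unadjusted p of the 8 genes in the ileum and groups that did not overlap in the jejunum. In the jejunum it was 4.5, 2.1, 49.1 and 2.5 CPM in the sham libraries and 0.7, 1.6 and 1.9 CPM in the RYGB libraries, so every RYGB library was below every sham library, as for 12.5% of the genes tested. Its log2 fold change was -1.66 ± 0.82 (SE, adjusted p = 0.246) in jejunum. In the ileum Ciita was 7.7, 4.6, 76.2, 60.5 and 7.6 CPM in the sham libraries and 1.9, 0.9, 10.2, 3.6 and 1.3 CPM in the RYGB libraries, with a log2 fold change of -2.31 ± 0.75 (adjusted p = 0.0769). Without RYGB replicate 3 it was -2.72 (adjusted p = 0.0495) and became the only called gene of the 8. Ctss, the other gene near the threshold, was 209, 186, 182, 273 and 165 CPM in the ileal sham libraries and 167.5, 147, 152, 127 and 159.5 CPM in the ileal RYGB libraries, which overlapped in 1 value (log2 fold change -0.41 ± 0.14, adjusted p = 0.084).

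**Figure D4:**
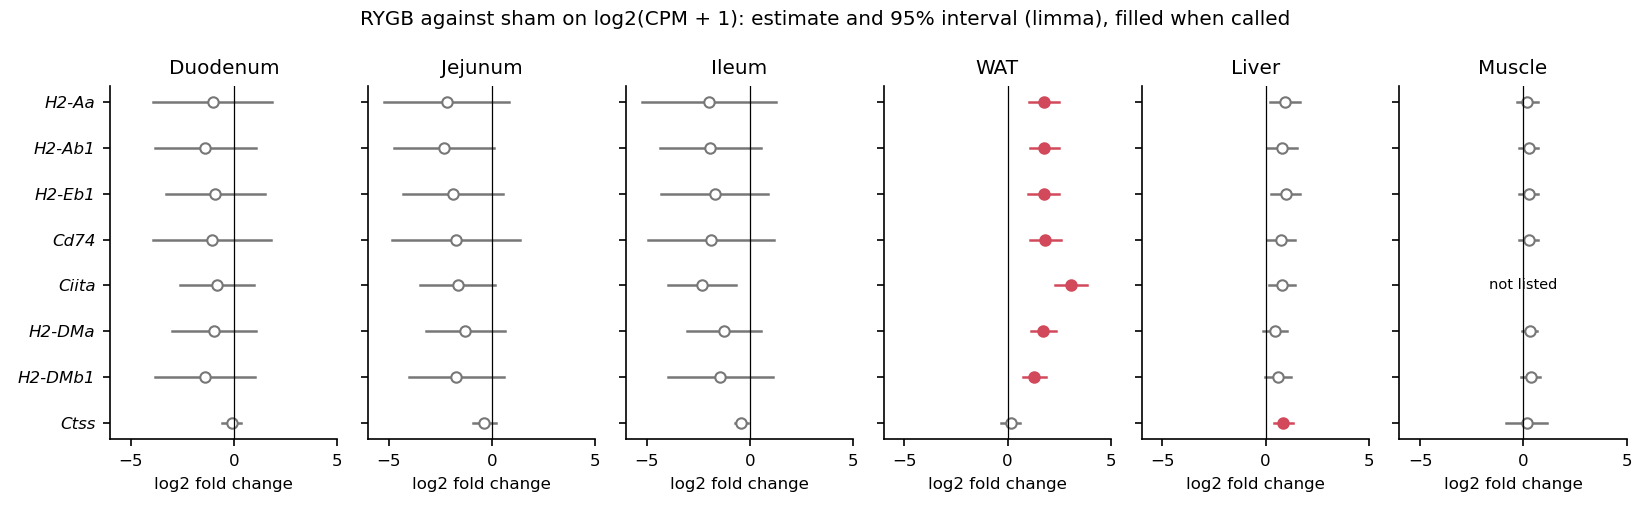
Log2 fold change of RYGB against sham with its 95% interval from limma for each class II gene in each tissue, filled and red when called. In WAT 7 genes are called higher and in liver Ctss alone, while the intervals of the chain genes in the villi span several log2 units.

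Of the other lists, T cell genes fell in the RYGB libraries of jejunum and ileum, with 5 of 6 tested genes called lower in jejunum (median log2 fold change -1.40) and 4 of 5 in ileum (-1.49) (for example Cd8a, log2 fold change -1.88 ± 0.29, adjusted p = 0.00411, in jejunum and -1.99 ± 0.34, adjusted p = 0.00962, in ileum). The pan-leukocyte list had 1 of 5 genes called lower in jejunum, Ptprc, and 3 of 5 in ileum. With single libraries left out, the pan-leukocyte count was 0 to 1 in jejunum and 0 to 4 in ileum, where it was 0 without sham replicate 3, 4 or 5 or RYGB replicate 2, and the T cell count was 3 to 5 in jejunum and 4 in ileum. Without ileal sham replicates 3 and 4 and RYGB replicate 3 the T cell count in ileum was 0. In the duodenum the T cell and pan-leukocyte estimates were above 0, with medians of 1.22 and 1.43, summed T cell levels of 40.6 to 91.9 CPM in RYGB and 14.7 to 47.0 CPM in sham libraries, 5 of 6 and 5 of 5 genes at an unadjusted p under 0.05, and 0 calls with limma, or 5 and 3 calls without sham replicate 4. Of the class II accessory list only Lgmn (legumain, an endosomal protease) was called, higher in jejunum (log2 fold change 1.73 ± 0.29, adjusted p = 0.00595). The proteins that bind class II promoters with the transactivator (Rfx5, Rfxank, Rfxap, Nfya, Nfyb, Nfyc and Creb1) had 0 of 7 calls in each segment. Of the interferon gamma targets Cd274 and Irgm2 fell in ileum (log2 fold change -1.58 ± 0.32 and -1.55 ± 0.42, adjusted p = 0.0153 and 0.0439). In ileum 176 genes were called higher and 474 lower, and 329 and 382 after scaling each library by its median ratio.

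In WAT the class II genes were higher after RYGB, with the exception of Ctss. Cd74 was 974.7, 572.5, 383 and 894 CPM in the sham libraries and 1706, 2038, 2757 and 3166 CPM in the RYGB libraries. H2-Aa was 520.0, 294, 211 and 484 CPM in sham and 895, 1001, 1499 and 1601 CPM in RYGB. H2-Ab1 was 337.5, 194, 131 and 299 CPM in sham and 586.5, 655, 904.5 and 987 CPM in RYGB. The lowest RYGB library exceeded the highest sham library for each of these genes. H2-Eb1 was 148 to 388 CPM in sham and 623.5 to 1126 CPM in RYGB libraries. The changes of the chain genes were nearly equal, with a fold change of 3.42 for H2-Aa (log2 1.77 ± 0.32), 3.39 for H2-Ab1 (1.76 ± 0.31), 3.36 for H2-Eb1 (1.75 ± 0.33) and 3.55 for Cd74 (1.83 ± 0.34). Adjusted p-values of the 4 lay between 0.0046 and 0.00597.

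The DM genes rose to a similar or smaller extent. H2-DMa was 35.4, 32.2, 16.6 and 29.3 CPM in sham and 68.9, 76.4, 105 and 132 CPM in RYGB (log2 fold change 1.72 ± 0.27, adjusted p = 0.00304). H2-DMb1 was 35.4, 25.3, 19.5 and 39.5 CPM in sham and 53.9, 66.0, 80.5 and 94.7 CPM in RYGB (log2 fold change 1.29 ± 0.24, adjusted p = 0.00604). The transactivator had the largest change of the 8 genes. Ciita was 23.6, 16.2, 11 and 28.0 CPM in sham and 102, 141, 168 and 278 CPM in RYGB, an 8.28-fold difference (log2 3.05 ± 0.35, adjusted p = 0.000659).

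Ctss was the member that did not pass. It was 383, 320.0, 283 and 563 CPM in sham and 389.7, 412, 399.6 and 452 CPM in RYGB, so that the RYGB values lay within the sham range (log2 fold change 0.14, 95% interval -0.32 to 0.60, adjusted p = 0.594). In all 7 of 8 genes were called higher, beside 14.9% of the 13379 genes tested in WAT, and the same 7 had every RYGB library above every sham library, beside 26.1%. Their median log2 fold change with Ctss included was 1.76, and that of all genes was 0.11. In WAT 1996 genes were called higher and 1235 lower, and 1660 and 1643 after scaling by the median ratio, which lowered the median of all genes by 0.10 and left the 7 calls in place.

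The remaining genes of the class II pathway moved in different directions. Of 12 accessory genes 7 rose and 2 fell in WAT. The largest increases were those of H2-Ob and H2-Oa, the chains of the DO molecule that restrains DM and is typical of B cells, and of the second copies H2-DMb2 and H2-Eb2. H2-Ob was 3.0, 2.2, 3.2 and 3.5 CPM in sham and 141, 209.7, 299 and 435 CPM in RYGB (log2 fold change 5.99 ± 0.31). H2-DMb2 was 2.0, 3.0, 2.2 and 2.3 CPM in sham and 84.7, 117.5, 151 and 226 CPM in RYGB (5.35 ± 0.27). H2-Oa rose from 0.3 to 0.6 CPM in sham to 31.6 to 76.5 CPM in RYGB, and H2-Eb2 from 0.3 to 0.7 to 27.0 to 75.4 CPM. Adjusted p-values of these 4 genes were at most 2.04e-05. March1, Cd83 and Ifi30, named after their values were seen, also rose (log2 fold change 1.97, 1.65 and 0.85). The proteases Lgmn (-0.92 ± 0.19, adjusted p = 0.00848) and Ctsl (-1.21 ± 0.29, adjusted p = 0.0141), named likewise, fell. Of the promoter-binding proteins Rfx5 (log2 1.2 ± 0.20) and Creb1 (0.69 ± 0.15) rose and 5 of 7 were not called.

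Markers of B and T cells moved with the class II genes in WAT. Of 12 B cell markers 11 rose, and the median log2 fold change of the list was 6.17. Ms4a1 (CD20) was 1.3, 1.1, 1.5 and 1.6 CPM in sham and 131, 201, 248 and 330.3 CPM in RYGB. The marker that was not called, Ebf1, is also made by adipocyte precursors and was 180 to 254 CPM in sham and 155 to 191 CPM in RYGB, so it made up most of the sham sum of the list, which was 195 to 282 CPM against 1445 to 3596 CPM in RYGB. All 10 T cell markers rose (summed list 30.5 to 73.4 CPM in sham and 466 to 1769 CPM in RYGB), as did all 5 pan-leukocyte genes (489 to 769 CPM and 1543 to 4126 CPM). Of 12 dendritic cell markers 5 rose, among them Ccr7 (5.14 ± 0.39) and Flt3 (3.5 ± 0.38), and Clec10a, named after its values were seen, fell. In sham WAT the B cell defining markers were thus near 0, while Cd74 was already 383 to 974.7 CPM.

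Adipocyte transcripts were lowest in the RYGB libraries with the most Cd74. The summed adipocyte list was 13322, 10336, 11278 and 9984 CPM in WAT sham replicates 1 to 4 and 11366, 11732, 7864 and 5096 CPM in RYGB replicates 1 to 4. With limma Lep fell (log2 fold change -1.38 ± 0.42, adjusted p = 0.0309), and the other 7 adipocyte markers were not called. With single libraries left out, 0 to 2 adipocyte markers were called. The part of adipocyte transcripts in the class II result was not tested.

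Most macrophage markers did not rise with the class II genes. Of 13 markers tested in WAT, 2 rose (Timd4, log2 fold change 3.33 ± 0.46, and Cx3cr1, 1.64 ± 0.32), 4 fell (Adgre1, -1.19 ± 0.40, and Mrc1, -1.17 ± 0.35, and, named after their values were seen, Cd68 and Fcgr1) and 7 were not called. With single libraries left out, limma called 3 to 7 macrophage markers. The highest adjusted p was then 0.102 for Adgre1 and 0.0722 for Mrc1, and 0.00807 for Timd4 and 0.0221 for Cx3cr1. The summed macrophage list was 2325 to 4054 CPM in sham and 2194 to 3002 CPM in RYGB. Adgre1 was 208, 161, 152 and 349 CPM in sham and 130.2, 139, 81.9 and 42.6 CPM in RYGB, and RYGB replicate 4 had the least Adgre1 and the most Cd74. Interferon gamma targets had 0 of 13 calls with limma (3 at an unadjusted p under 0.05) and a median log2 fold change of 0.11, whereas of the interferon gamma signalling list 4 of 8 rose, led by Irf8 (2.10 ± 0.27) and Socs1 (1.3 ± 0.24). The class I pathway had 7 of 13 genes called higher, led by Tap1 (1.39 ± 0.23) and Psmb8 (1.18 ± 0.18). The part of lymphoid cells in the class II result was not tested.

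**Figure D5:**
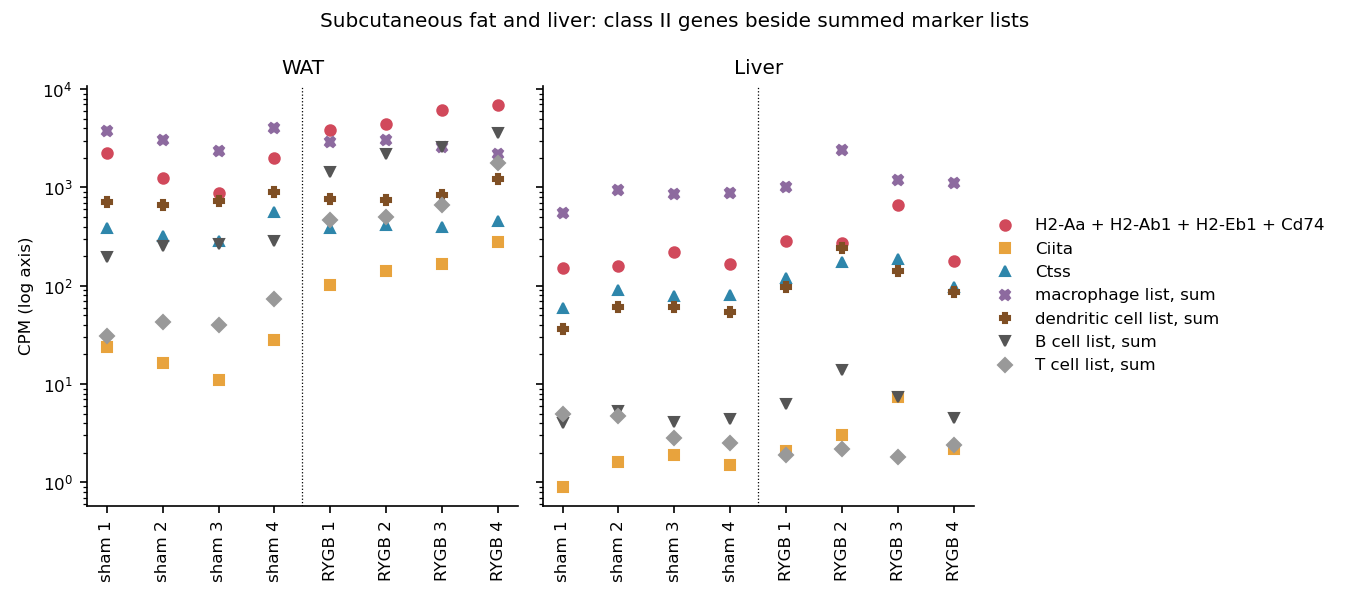
CPM on a log axis in each WAT and liver library of the summed chain genes, Ciita, Ctss and 4 summed marker lists, with sham left and RYGB right of the dotted line. In WAT the chain genes, B cell and T cell sums are higher in every RYGB library and the macrophage sum is not. In liver RYGB replicate 3 has the highest chain genes and RYGB replicate 2 the highest macrophage sum.

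The differences in WAT had the same sign within lanes, except for Ctss. On lane 5, with 2 sham and 2 RYGB libraries, the log2 difference was 1.66 for Cd74, 1.65 for H2-Aa and 2.92 for Ciita, and on lane 6, with 1 library of each group, it was 1.82, 1.72 and 3.27. Ctss differed by 0.21 on lane 5 and -0.32 on lane 6. Sham replicates 2 and 3 of WAT, the libraries with the most Nnt, had the least Cd74 of all 8 libraries. Without them, a choice made after seeing the data, 3 of 8 genes were called, Ciita (log2 fold change 2.60, adjusted p = 0.0165), H2-Ab1 and H2-DMa, and the log2 fold change of Cd74 was 1.33 (adjusted p = 0.0728). Of the lists, 11 B cell and 9 T cell genes were then called, but 0 of the class I pathway, 1 of interferon gamma signalling and 1 macrophage marker.

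In liver Ctss was the only one of the 8 genes that was called, and it was higher after RYGB. Ctss was 59.1, 91.3, 78.4 and 80.4 CPM in sham and 118.5, 176, 189 and 96.0 CPM in RYGB, so the groups did not overlap (log2 fold change 0.86 ± 0.21, adjusted p = 0.0352). Cd74 was 63.1, 81.3, 99.6 and 84.3 CPM in sham and 134, 119, 283 and 81.6 CPM in RYGB (0.77 ± 0.31, adjusted p = 0.137). H2-Aa was 36.0, 34.0, 48.4 and 33.6 CPM in sham and 65.5, 63.3, 160.2 and 40.5 CPM in RYGB (0.92 ± 0.33, adjusted p = 0.101). RYGB replicate 4 lay within the sham range for these chain genes, and RYGB replicate 3 was the highest for all 8 genes.

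The other members had their highest value in the same library of the liver. H2-Ab1 was 24 to 37.5 CPM in sham and 27.9 to 107 CPM in RYGB, and H2-Eb1 was 21.3 to 32.5 and 28.5 to 110.3 CPM. H2-DMa (4.2 to 6.6 CPM in sham, 4.9 to 14.5 in RYGB) and H2-DMb1 (2.9 to 6.0 and 3.7 to 11.8 CPM) were low. Ciita was 0.9, 1.6, 1.9 and 1.5 CPM in sham and 2.1, 3.0, 7.3 and 2.2 CPM in RYGB, without overlap (0.80 ± 0.29, adjusted p = 0.108), at a level where rounding to 0.1 CPM limits the precision. In all 1 of 8 genes was called higher, beside 5.79% of the 11807 genes tested, and 2 of 8 had groups that did not overlap in this direction, beside 13.4%. All 8 estimates were above 0, with 6 at an unadjusted p under 0.05, beside 3181 of the 11807 genes, and a median of 0.79, beside 0.13 over all genes. In liver 684 genes were called higher and 152 lower, and 450 and 226 after scaling by the median ratio, which lowered the median of all genes by 0.14 and that of the members to 0.67.

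The call of Ctss in liver was lost when sham replicate 1, 2, 3 or 4 or RYGB replicate 2 or 3 was left out, with 0 calls in each case (adjusted p from 0.0526 to 0.0992), and without RYGB replicate 4 there were 3 calls, Ctss, H2-Aa and H2-Eb1. Within lanes the differences were all above 0. For Ctss the log2 difference was 0.37 on lane 2, 1.14 on lane 3 and 1.17 on lane 4, and for Cd74 it was 0.72, 0.37 and 1.26, with 1 or 2 libraries of each group on a lane.

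Leukocyte markers and some macrophage markers were also higher in the RYGB livers. All 5 pan-leukocyte genes rose, with a summed list of 66.1 to 92.6 CPM in sham and 143.5, 325, 198 and 127 CPM in RYGB replicates 1 to 4. This count of 5 dropped to 0 when sham replicate 1 or RYGB replicate 3 was left out, to 1 when sham replicate 4 was, and to 3 when sham replicate 2 was. Of 14 macrophage markers 3 rose, Lyz2 (log2 fold change 1.81 ± 0.30), Cx3cr1 (1.57 ± 0.30) and Cd68 (1.03 ± 0.22), and the Kupffer cell marker Clec4f was 130.0 to 244 CPM in sham and 147 to 213 CPM in RYGB. The summed macrophage list was 1012, 2393, 1181.5 and 1105 CPM in RYGB replicates 1 to 4 and 552 to 948 CPM in sham. RYGB replicate 2, with the most macrophage transcripts, had a summed chain gene level of 271 CPM, and RYGB replicate 3 had 661 CPM. Itgax, a marker of dendritic cells that recruited macrophages also carry, rose from 0.8, 0.9, 1.9 and 1.1 CPM to 10.0, 5.6, 16.4 and 4.9 CPM (2.12 ± 0.31, adjusted p = 0.00518), and Sirpa rose too (1.40 ± 0.33). RYGB replicate 3 was the highest for Itgax and for Cx3cr1 (17.8 CPM) as it was for the chain genes. The B cell marker Cd79b was at most 4.3 CPM, and 0 of 3 B cell markers tested were called with limma (1 at an unadjusted p under 0.05).

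Of the accessory genes 3 of 8 rose in liver, Cd83 (1.12 ± 0.20), Lgmn (0.88 ± 0.23) and Ctsz (0.77 ± 0.15). Lgmn thus rose in liver and fell in WAT. The receptor chains Ifngr1 (0.74 ± 0.18) and Ifngr2 (0.76 ± 0.14) and Irf8 (0.75 ± 0.21, adjusted p = 0.0499) rose, but this count of 3 dropped to 1 when any 1 of the sham libraries, or RYGB replicate 2 or 3, was left out. Of 12 interferon gamma targets Gbp2 alone was called (0.98 ± 0.25), with a list median of -0.18. The class I pathway had 0 of 13 calls with limma, with 4 at an unadjusted p under 0.05, and a median log2 fold change of 0.04.

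In muscle the class II genes were low and 0 of 7 were called, beside 0.00% of 11966 genes, since limma called 0 genes in all in that tissue and 1746 had an unadjusted p under 0.05, none of them a member. Cd74 was 23.0, 43.1, 39.3 and 39.7 CPM in sham and 57.0, 44.5, 37.3 and 33.2 CPM in RYGB (log2 fold change 0.25, 95% interval -0.23 to 0.73). H2-Aa was 11.2 to 21.5 CPM and 15.1 to 28.1 CPM, and H2-Ab1 was 8.6 to 15.8 CPM and 13.3 to 20.1 CPM. The groups overlapped for each gene. Ctss varied most, from 4.0 to 24.9 CPM in sham and from 7.1 to 16.7 CPM in RYGB. The median estimate of the members was 0.26 and that of all genes was 0.05. On lane 2, the only lane with both groups, the log2 difference of Cd74 was 0.66 with 2 libraries each.

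Over all 48 libraries, the chain genes and the DM genes ranked first by their likeness to the mean of the chain genes. Likeness was taken as Pearson's r of log2(CPM + 1) with the mean of H2-Aa, H2-Ab1, H2-Eb1 and Cd74, over the 8771 genes listed in all 6 tables, as a description. The first 6 ranks were held by these 4 genes, which form the mean, and by H2-DMb1 (r = 0.99) and H2-DMa (r = 0.98), and Ciita could not be ranked because it was not listed in muscle. Ctss had r = 0.52 and rank 1661. The nearest genes outside the set were Itgb7 (0.76), Bclaf3 (0.75), Sash3 (0.75), Ptprc (0.75) and Atp9b (0.74), of which Itgb7, Sash3 and Ptprc are leukocyte genes. After each tissue mean was subtracted, the nearest were H2-M3 (0.68), Il18bp (0.64), H2-T23 (0.63), Nlrc5 (0.63) and Cd274 (0.62), which include nonclassical class I genes and interferon targets, and Ctss had r = 0.34 and rank 386. The libraries within a tissue share its table and normalization, and the points are not independent of the high villus libraries.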

How the data were processed

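Poly(A) RNA of 48 tissue samples was sequenced from TruSeq Stranded mRNA libraries. The submitters' processing notes name HTSeq and GRCm38, and the aligner is not given in the sources used here. Positions are from GENCODE M21 and promoters from RefSeq. The authors deposited 1 table per tissue holding CPM rounded to 0.1. The columns of jejunum and ileum and of liver sham replicate 4 were entered as a score, because repeated lines or a shifted line break the limits of deposited CPM. Repeated lines (1 to 408 per table, equal values) were counted once and 12 shifted liver lines were left out. All values lie on steps of 0.1 CPM, so whole reads were not recovered and depth is unknown. No pair of libraries held identical values, and 0 columns belonged to other samples. Whether libraries of a group came from separate mice is not stated, so p-values measure the spread between these libraries.

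RYGB and sham were compared within each tissue with limma (version 3.58.1, R 4.3.3) on log2(CPM + 1), empirical Bayes with a trend, keeping genes whose average reached 1 CPM. Adjustment was that of Benjamini and Hochberg across every gene tested in a tissue, and a gene was called at an adjusted p under 0.05 and a fold of at least 1.5. The fit was tested on simulated data. Tables and figures were made with Python 3.11.15, pandas 2.3.3, numpy 2.4.6 and matplotlib 3.10.9. The genes named are the 8 members, at most 4 called genes with the largest change per list and tissue, and the 5 genes most alike on each scale. Others were named after their values were seen. The members and lists were chosen with earlier results of these data known, so the lists are a description. The lists were class II accessory genes, class II promoter-binding proteins, interferon gamma signalling and targets, class I pathway, co-stimulation, and markers of B cells, dendritic cells, macrophages, T cells, all leukocytes, enterocytes, hepatocytes, adipocytes and muscle fibres. Alternatives were another pseudocount (0.1), other filters (none, or 10 CPM), scaling by the median ratio, the adjusted p alone, the replicate number as a block, lane as a covariate, and leaving out libraries. Some left-out sets were chosen after seeing the data. Values of some genes are not reported here.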

Additional observations from a re-analysis of the deposited data

Results flagged for a closer look

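Dixon's 95% criterion was applied to the gap between an extreme value and the next, as a share of the group's range. For independent, normally distributed values about 1 in 20 groups exceed it by chance. These values were CPM, and most members moved together in the same libraries, so that rate is no measure for the count. Among the 78 groups of members with 4 or 5 libraries, 19 exceeded the criterion. Of these, 16 concerned 3 villus libraries. Jejunal sham replicate 3 was the highest for Cd74 (share of the range 0.958), Ciita (0.949), H2-Aa (0.967), H2-Ab1 (0.88), H2-DMa (0.834), H2-DMb1 (0.935) and H2-Eb1 (0.888). Ileal RYGB replicate 3 was the highest for Cd74 and H2-Aa (0.972 each), H2-Ab1 (0.959), H2-Eb1 (0.964), H2-DMb1 (0.978) and H2-DMa (0.913). Duodenal sham replicate 3 was the highest for Cd74 (0.856), H2-Aa (0.857) and H2-DMb1 (0.841). In ileal sham libraries 2 high values stood side by side, so no single gap was large enough.

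The other 3 were single genes. Duodenal sham replicate 2 was the lowest for Ctss (139.6 CPM, next 187 CPM, share 0.831), liver sham replicate 3 was the highest for H2-Aa (48.4 CPM, next 36.0 CPM, share 0.838), and muscle sham replicate 1 was the lowest for H2-Ab1 (8.6 CPM, next 14.8 CPM, share 0.861).

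The Ciita estimates differed in sign between tissues, and only that of WAT was called with limma. Every RYGB library was above every sham library in WAT (log2 fold change 3.05, adjusted p = 0.000659) and in liver (0.80, adjusted p = 0.108), and every RYGB library was below every sham library in jejunum (-1.66, adjusted p = 0.246). Of all genes tested, 26.1%, 13.4% and 12.5% had groups apart in the same way. The difference between tissues was not tested.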

How the results depend on the processing

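The 7 calls in WAT remained 7 under the other pseudocount, filters, scaling, the adjusted p alone, the replicate block and lane as a covariate, and 7 without any single library. Without sham replicates 2 and 3 of WAT, left out like the other pairs after seeing the data, there were 3, and the log2 fold change of Ctss turned to -0.17. In liver the count was 6 with the replicate block in place of 1, and 0 to 3 with single libraries left out. In ileum it was 1 with the block (Ciita, adjusted p = 0.0187) and 0 to 1 with single libraries left out, and in jejunum it was 1 with the block (Ciita, adjusted p = 0.0391). In duodenum and muscle no setting gave a call. The numbers are not stated to pair mice. The deviations of same-numbered libraries had correlations across genes from -0.28 to 0.39. Such mixed values cannot decide whether these libraries were paired, so the counts with the block are given as an alternative only.

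Leaving out single libraries moved the log2 fold change in duodenum from -1.94 to 0.0816 for Cd74, -1.87 to 0.13 for H2-Aa, -1.63 to 0.0198 for H2-Eb1 and -0.26 to 0.0676 for Ctss, and in muscle from -0.23 to 0.56 for Ctss and -0.00365 to 0.32 for H2-Aa. Without duodenal sham replicates 3 and 4 the direction turned for Cd74 (1.05), Ciita (0.41), Ctss (0.000103), H2-Aa (1.12), H2-Ab1 (0.50), H2-DMa (0.52) and H2-Eb1 (0.91), and without ileal sham replicates 3 and 4 for Cd74 (0.19), H2-Aa (0.30), H2-Eb1 (0.0799), H2-DMb1 (0.34) and H2-DMa (0.000691). Lane could not be a covariate in duodenum (1 lane) or ileum (lane and surgery coincide). Depth is unknown, and the rounding to 0.1 CPM limits genes near 1 CPM.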

Other observations

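In the villi, the genes outside the set that were most alike the mean of H2-Aa, H2-Ab1, H2-Eb1 and Cd74 over the 24 libraries, after subtracting each segment's mean, were H2-M3 (r = 0.78), Tymp (0.74), Wdfy1 (0.72), Camk2b (0.71), Sco2 (0.70) and Nnt (0.70). This ranking was added after the values were seen. H2-M3 was only 0.5 to 2.8 CPM in the villus libraries, where rounding to 0.1 CPM limits the precision. H2-M3 encodes a nonclassical class I molecule, Tymp thymidine phosphorylase, Sco2 a copper chaperone of cytochrome oxidase, and Nnt the mitochondrial transhydrogenase, which is known to carry a deletion in the C57BL/6J substrain but not in C57BL/6N. The labels give C57Bl6 for every mouse and no substrain.

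The high villus values of Nnt and Tymp fell on particular sham libraries. Nnt was 57.8 and 58.9 CPM in duodenal sham replicates 3 and 4 and 18.6 to 34.1 CPM in the other duodenal libraries, 54.5 CPM in jejunal sham replicate 3 and 14.0 to 21.6 CPM in the others, and 40.7 and 43.2 CPM in ileal sham replicates 3 and 4 and 15.3 to 31.1 CPM in the others. Tymp was 127 and 175 CPM in the same duodenal libraries, 115 CPM in the jejunal one, and 92.8 and 102 CPM in the ileal ones, against at most 40.7 CPM in every other villus library. The 4 high sham villus libraries were thus all among these 5, duodenal sham replicate 4 (Cd74 126 CPM) was the fifth, and ileal RYGB replicate 3 (Cd74 1403 CPM) had 15.3 CPM of Nnt and 23.8 CPM of Tymp. Outside the gut, Wdfy1 was 56.7 and 57.4 CPM in WAT sham replicates 2 and 3 against 26.6 to 35.4 CPM in the other WAT libraries, 35.4 CPM in liver sham replicate 3 against 10.6 to 14.6 CPM, and 27.6 CPM in muscle sham replicate 3 against 5.2 to 8.0 CPM. The genes did not mark the same libraries everywhere: Wdfy1 was also 57.9 CPM in ileal sham replicate 5, and Nnt was higher in muscle RYGB replicate 3 (166 CPM) than in muscle sham replicate 3 (126 CPM). Their part in the class II values was not tested, and the labels do not tie a replicate number in one tissue to the same number in another.

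Ubd, an interferon-induced ubiquitin-like gene, was 96.6 CPM in jejunal sham replicate 3 and 191 CPM in ileal sham replicate 3, but 8.4 CPM in duodenal sham replicate 3, 15.7 CPM in ileal sham replicate 4 and 6.4 CPM in ileal RYGB replicate 3. The complement gene C2, which lies in the MHC, was 12.5 CPM in jejunal sham replicate 3 and 15.9 and 16.6 CPM in ileal sham replicates 3 and 4, and 4.0 CPM in ileal RYGB replicate 3. Genes listed under co-stimulation (Cd80, Cd86, Cd40, Icosl, Cd274 and Pdcd1lg2) also moved in WAT. There 5 of 6 rose, led by Icosl (log2 fold change 3.13 ± 0.26) and Cd40 (2.32 ± 0.25). In liver Icosl was the only one of 4 called (0.83 ± 0.19).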
